A study of Rattus norvegicus with 4 samples.

Results

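Genes of voltage-gated and ligand-gated ion channels were examined in the livers of 4 male rats of the Sprague-Dawley strain. The rats were between 10 and 12 weeks old and had received no treatment. The members were all genes whose only annotated symbol begins with one of the standard stems of these families: potassium (Kcn), sodium (Scn) and calcium (Cacn) channels, GABA-A (Gabr), glutamate (Gria, Grik, Grin, Grid), nicotinic (Chrn), glycine (Glra, Glrb), serotonin (Htr3) and ATP (P2rx) receptors, and the TRP families C, M and V. This gave 187 of the 10412 named genes on the array, from 254 probe sets, and a gene's value is that of its brightest probe set, judged by the mean over the 4 rats. The rats all had the same strain, sex, feed and housing and form 1 group, so there is no comparison between conditions, and no test between groups was possible. RNA was taken from slices of whole liver, 1 array per rat, so a difference between rats cannot be told apart from a difference between arrays.

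Ion channels are membrane proteins that open a pore for selected ions. Voltage-gated potassium, sodium and calcium channels open when the membrane potential changes and carry the action potentials of nerve and muscle, whereas ligand-gated receptors open when a transmitter such as GABA, glutamate, acetylcholine, glycine, serotonin or ATP binds. Hepatocytes fire no action potentials. Their channels set a resting potential, regulate cell volume and let calcium in, and the purinergic, TRP and some potassium channels are the ones best known from liver cells.

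Few channel genes gave a signal above that of genes from other tissues. The level called background was 8.28 log2 units, the 95th percentile of 66 genes typical of brain, muscle, testis or eye, each taken at its brightest probe set. Of the 187 members, 24 lay above it, which is 12.8%, while 5082 of all 10412 named genes did, which is 48.8%. By its definition a few background genes pass the level too, here Myh1 (11.49), Calb2 (8.47), Slc6a3 (8.41) and Syn1 (8.28). A signal just above the level therefore does not show that a gene is expressed. Myh1 lay far above it and above every member, with probe sets at 11.49, 10.82, 10.48, 10.04 and 7.91. The reason was not tested. The brightest members were not channels. Grina, a membrane protein of the Golgi apparatus and endoplasmic reticulum whose name refers to a glutamate receptor, had 10.70 on all 4 arrays. Trpc4ap, an adaptor protein that binds TRPC4, had 9.65. Without both, 22 of 185 channel genes were above background, or 11.9%. A log2 signal depends on the probes as well as on the transcript, so the order of genes describes signal and not amount.

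The median signal of the members was 7.79, with quartiles of 7.54 and 8.07. That of the background list was 7.86, with quartiles of 7.51 and 8.10, and that of all named genes 8.26, with quartiles of 7.83 and 8.85. The members thus lay close to these genes of other tissues over the middle of their range. Only 5 members were more than 0.5 log2 units above the level, namely Grina, Trpc4ap, Kcnh3, Cacng2 and Kcnk3, against 27.4% of all named genes. Beyond 1 log2 unit there were 2, Grina and Trpc4ap, against 15.8% of named genes.

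**Figure D1:**
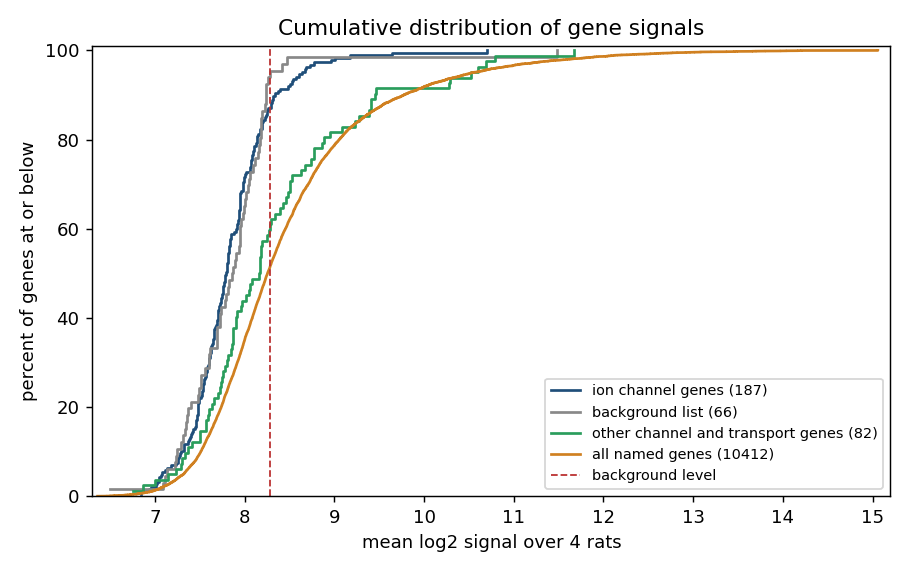
Cumulative percent of genes (vertical axis) at or below a mean log2 signal over 4 rats (horizontal axis), for the 187 members, the 66 background genes, 82 other channel and transport genes and all 10412 named genes. The dashed line is the background level of 8.28, and the curve of the members runs beside that of the background list.

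The labelled tissue was checked against its markers. All 8 hepatocyte markers were above background, at signals from 10.36 to 15.06, as were 4 of 4 Kupffer cell and macrophage markers, 3 of 7 of stellate cells and fibroblasts, 2 of 5 of smooth muscle, 2 of 4 of endothelium and 2 of 2 of red cells. None of 7 nerve and Schwann cell markers was (7.43 to 7.83), nor any of 4 bile duct or 7 lymphocyte, natural killer cell and neutrophil markers. In RNA of whole liver, fewer cells of a type and less RNA per cell cannot be told apart, and a transcript may be present where its signal is below the level. The highest of 27 control probe sets for bacterial transcripts had 7.75, and 102 members exceeded it (79.6% of all named genes did).

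By class, 13 of 16 channel classes had at least 1 member above background. Potassium channels, which repolarise the membrane and hold its resting potential, contributed 11 of 73 genes, calcium channels 3 of 24, sodium channels 1 of 12, ligand-gated receptors 5 of 61 and TRP channels 2 of 15. The beta subunits of sodium channels (3 genes), the glycine receptor (4 genes) and the serotonin receptor (2 genes) had none.

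**Figure D2:**
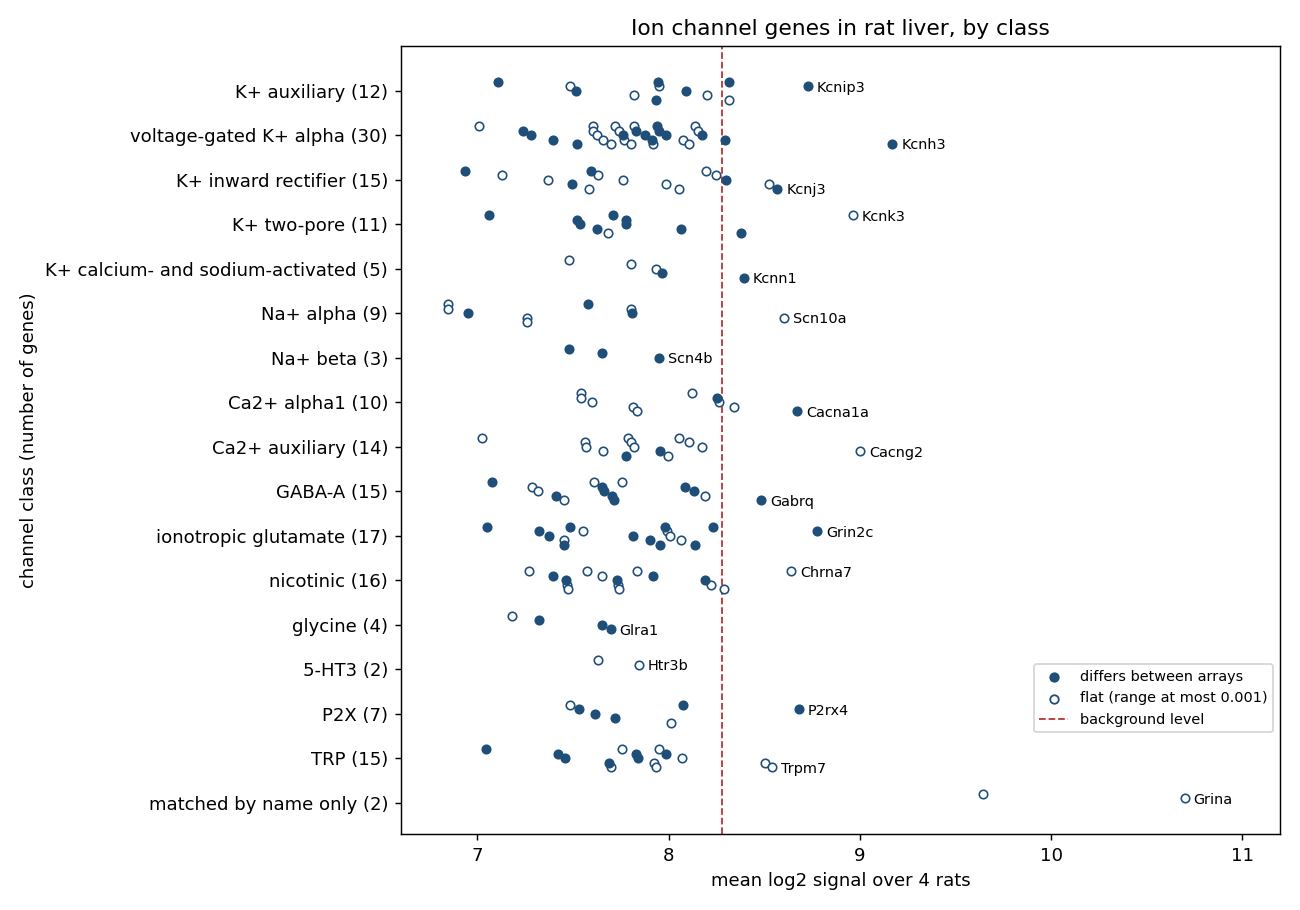
Mean log2 signal over 4 rats (horizontal axis) of each of the 187 members, 1 point per gene, by class (vertical axis, with the number of genes). Open points are flat on all 4 arrays, the dashed line is the background level of 8.28, the brightest gene of each class is named, and most points of every channel class lie left of the line.

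Among voltage-gated potassium channels, 2 of 30 alpha subunits were above background. Kcnh3, a channel of the ether-a-go-go family best known from forebrain, was the brightest of the 185 members that are channel genes, with log2 signals of 9.20, 9.14, 9.16 and 9.18 in replicates 1 to 4 (9.17 ± 0.026, SD, n = 4). All 4 rats lay well above the level and within 0.061 of each other. Kcna2, a delayed rectifier of axons, had 8.32, 8.29, 8.30 and 8.27, so 1 rat was below the level and 3 just above it. Kcnq1, which repolarises heart muscle and recycles potassium across epithelia, had 7.80 on all 4 arrays and was below background.

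Auxiliary subunits of potassium channels reached 3 of 12. Kcnip3, a calcium-binding partner of Kv4 channels that also acts as a transcriptional repressor, had 8.81, 8.71, 8.67 and 8.72 (8.73 ± 0.062). Kcnab2, a cytoplasmic beta subunit, had 8.28, 8.34, 8.34 and 8.29 (8.31 ± 0.030), close to the level in every rat. Kcnmb4, a beta subunit of the large-conductance calcium-activated channel, had 8.31 on all arrays. Kcne3, a small partner of Kcnq1, was below background at 7.94 ± 0.058, with 8.03 in replicate 2 and 7.91 to 7.92 in the other rats.

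Inward rectifiers, which pass potassium into the cell more easily than out of it, had 3 of 15 genes above background. Kcnj3, a subunit of the G protein-gated channel, had 8.58, 8.58, 8.53 and 8.60 (8.57 ± 0.030). Kcnj11, the pore of the ATP-sensitive channel, had 8.52 on all arrays. Its regulatory partners, the sulfonylurea receptors Abcc8 (8.16 ± 0.050) and Abcc9 (7.76 ± 0.064), were below background, as was Kcnj8 (7.76), the other pore subunit of such channels. Kcnj15 had 8.32, 8.28, 8.33 and 8.26, on both sides of the level. Kcnj4 (8.25) lay just below it.

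Two-pore potassium channels, which carry leak current, had 2 of 11 above background. Kcnk3, an acid-sensitive leak channel, had 8.96 on all arrays, and Kcnk6 had 8.36, 8.36, 8.40 and 8.38 (8.38 ± 0.021). Kcnk5, a volume- and alkali-sensitive leak channel, had 8.06, 8.04, 8.14 and 8.03 (8.07 ± 0.051) and stayed below the level in all rats. Of 5 calcium- and sodium-activated channels, Kcnn1, a small-conductance channel, was above background, with 8.48, 8.30, 8.39 and 8.40 (8.39 ± 0.078). Kcnt1 (7.96 ± 0.017), Kcnma1 (7.81) and Kcnn4 (7.48), the intermediate-conductance channel, were below.

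Sodium channel alpha subunits, the pores of the action potential, had the lowest median of the classes of 3 or more genes (7.26). Scn10a, a channel of pain-sensing neurons, was above background, at 8.60 on all arrays. The other 8 were not, from Scn11a at 7.81 ± 0.032 down to Scn1a, the lowest member of all, at 6.85. Among the beta subunits Scn4b had 7.95 ± 0.029 and Scn3b 7.65 ± 0.058.

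Calcium channels had 2 of 10 pore subunits above background. Cacna1a, the P/Q-type pore of nerve terminals, had 8.71, 8.68, 8.62 and 8.67 (8.67 ± 0.037), and Cacna1f, an L-type pore of photoreceptors, had 8.34 on all arrays. The T-type pores Cacna1g (8.26) and Cacna1i (8.25 ± 0.048) lay just below the level, Cacna1i with 8.32 in replicate 2 and 8.21 to 8.24 in the others. Of 14 auxiliary subunits, Cacng2, or stargazin, which carries AMPA receptors to synapses, was above background, at 9.004 on all arrays, and the next was Cacnb1 at 8.18.

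Ligand-gated receptors of nerve and muscle gave little signal. Of 17 glutamate receptor subunits, Grin2c, an NMDA receptor subunit, was above background, with 8.75, 8.88, 8.72 and 8.76 (8.78 ± 0.072). Grin1, the subunit that every NMDA receptor needs, had 8.23 ± 0.012 and lay below. Of 16 nicotinic subunits, Chrna7 (8.64) and Chrna6 (8.29) were above, both flat. Of 15 GABA-A subunits, Gabrq was above with 8.49, 8.49, 8.48 and 8.48, and Gabrb1 followed below the level at 8.19. The brightest glycine receptor subunits were Glra1 (7.70 ± 0.009) and Glra2 (7.65 ± 0.033), and the serotonin receptor subunits were Htr3b (7.85) and Htr3a (7.63).

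ATP-gated P2X receptors, which let calcium into cells when ATP is released nearby, had 1 of 7 above background. P2rx4, widespread in epithelia and macrophages, had 8.60, 8.81, 8.65 and 8.66 (8.68 ± 0.087), the largest SD among the members above background. All 4 rats were above the level, with replicate 2 highest. Of the 4 Kupffer cell markers, Clec4f (10.38, 10.82, 10.59 and 10.28) and C1qa (9.80, 10.39, 10.22 and 10.12) were also highest in replicate 2. Cd68 was highest in replicate 3 (9.01, 9.25, 9.34 and 9.16), and Csf1r had 9.16 on all arrays. The summed linear signal of the 4 Kupffer cell markers ran from 3311 in replicate 1 to 4332 in replicate 2, with no marker at 0. The mean deviation in replicate 2 was 0.155 log2 units for these markers and 0.155 for those of stellate cells and fibroblasts. The latter had 0.161 in replicate 4. Of the 88 members that were not flat, 37.5% were highest in replicate 2, so this match is not particular to Kupffer cells. The part of Kupffer or other cells in the P2rx4 signal was not tested. P2rx7, the receptor that triggers inflammasome activation in macrophages, had 8.08 ± 0.007 and was below background.

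TRP channels had 2 of 15 above background. Trpm7, a magnesium-permeable channel with a kinase domain, had 8.54 on all arrays, and Trpv6, a calcium channel of absorbing epithelia, had 8.50. Trpv2 (7.94), Trpc1 (7.92), Trpm4 (7.83 ± 0.041), Trpv4 (7.70) and Trpv1 (7.69 ± 0.073) were below. One further probe set is annotated to both Trpv1 and Trpv4, and its mean of 8.01 was below the level too.

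Of 16 channels listed as known from liver cells, 14 were measured, and 3 of them, P2rx4, Trpm7 and Kcnj11, were above background. The 11 below were Kcnq1, Kcne3, Kcnk5, Kcnn4, Kcnj8, P2rx7, Trpc1, Trpm4, Trpv1, Trpv2 and Trpv4. That share, 21.4%, was below the 48.8% of all named genes.

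Channel and ion transport genes outside these families were above background for 33 of 82 genes, or 40.2%. Among them were Gjb1, the main gap junction protein of hepatocytes, at 11.67 ± 0.017, with Gjb2 at 9.45 ± 0.081, and the water and glycerol channel Aqp9 at 10.79 ± 0.22, with Aqp8 at 10.70 ± 0.099. The mitochondrial porins Vdac1 and Vdac2 had 10.52 ± 0.087 and 10.28, and the calcium pump of the endoplasmic reticulum, Atp2a2, had 10.60 ± 0.13, with the sodium pump subunit Atp1b1 at 9.38 ± 0.13. Store-operated calcium entry was represented by its pore Orai1 at 9.09 ± 0.056 and its sensor Stim1 at 8.63 ± 0.033, and chloride transport by Clic4 at 9.41 ± 0.046 and the volume-regulated channel Lrrc8a at 9.23. The lysosomal channel Tpcn1 had 9.46 ± 0.037, and Cngb1, known from photoreceptors, 9.41. These genes were the 2 brightest of each group, and each exceeded the brightest channel member, Kcnh3, except Orai1 and Stim1, as a comparison of signals only.

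Of 48 members with several probe sets, 10 had their brightest probe set above background, or 20.8%, against 60.2% of the 1870 named genes with several. In the other 38 every probe set was below the level. In 0 of these 10 was a second probe set above the level. Of the 1126 named genes with several probe sets and the brightest above, 519 had a second one above, or 46.1%. The shares were not matched for signal. The brightest of the 10 was Cacng2 at 9.004, whereas 15.8% of all named genes lay more than 1 log2 unit above the level. Kcnk3 had 8.96, 7.90 and 7.67, Cacng2 had 9.004 and 7.81, and Trpm7 had 8.54 and 7.50. Kcnj11 had 8.52, with 7.99 in both others, and Cacna1a had 8.67, 7.84, 7.66 and 7.49. Kcnip3 had 8.73 and 7.90, Kcnj3 had 8.57, 7.91 and 7.77, and Kcnk6 had 8.38 and 7.59. The closest pair was that of Kcnab2, at 8.31 and 8.05, and Kcnj15 had 8.30 and 7.75. The remaining 14 members above background had 1 probe set each, among 139 members with 1, or 10.1%, against 46.3% of named genes with 1. With each gene at the median over its probe sets, and the level recomputed in the same way at 8.24, 8 of these 10 were below it, all but Cacng2 and Kcnip3. Which transcripts or splice forms the probe sets detect was not tested.

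**Figure D3:**
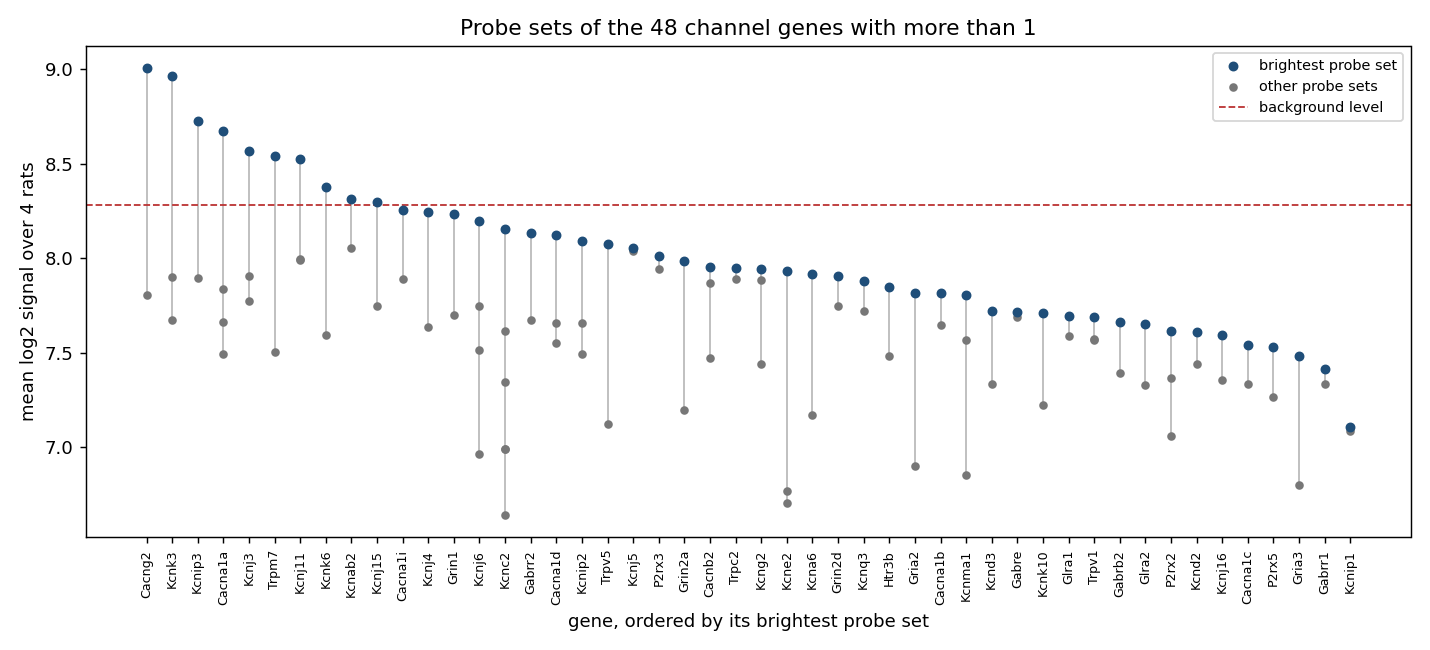
Mean log2 signal over 4 rats (vertical axis) of every probe set of the 48 members with more than 1 (horizontal axis, ordered by the brightest). Blue points are the brightest probe sets, grey points the others, and no grey point lies above the dashed background level of 8.28.

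The source of the probe set's design sequence differed too. Of 27 members whose brightest probe set was annotated to an expressed sequence tag, 7 were above background (25.9%), and these were Grina, Trpc4ap, Cacng2, Kcnk3, Kcnip3, Cacna1a and Kcnab2. Of 160 with another kind of accession, 17 were (10.6%). Over all named genes the shares were 52.8% and 41.7%.

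Signals of channel genes hardly differed between rats. Of 187 members, 99 (52.9%) were flat, meaning equal to within 0.001 on all 4 arrays, against 42.4% of all named genes. Their values say nothing of how the rats differed. Of all named genes, 35.0% of those above background and 49.3% of those below it were flat. Among the 24 members above background 12 were flat, and among the 163 below 87 were (53.4%). Members and all named genes thus differed less in this share below the level, where most members lay, than above it. The 88 that were not flat had a median SD of 0.038, against 0.049 for 6002 such named genes, 0.057 for those above background and 0.043 for those below it. Among the members, the 12 above background had a median SD of 0.030 and the 76 below it 0.040. The largest SD of a member was 0.098, and none exceeded 0.2, which 310 of the 6002 named genes did. Of those, 278 were among the 3301 above background and 32 among the 2701 below it, where most members lay. The 5 largest belonged to Gabra6, a GABA-A subunit of cerebellar granule cells (7.84, 7.67, 7.70 and 7.61), Scn3a (7.71, 7.54, 7.58 and 7.49), P2rx4, the kainate receptor subunit Grik1 (7.38, 7.26, 7.39 and 7.47) and the muscle nicotinic subunit Chrnb1 (7.56, 7.49, 7.42 and 7.38). All but P2rx4 were below background. These differences were at most 0.23 log2 units from the lowest to the highest rat.

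**Figure D4:**
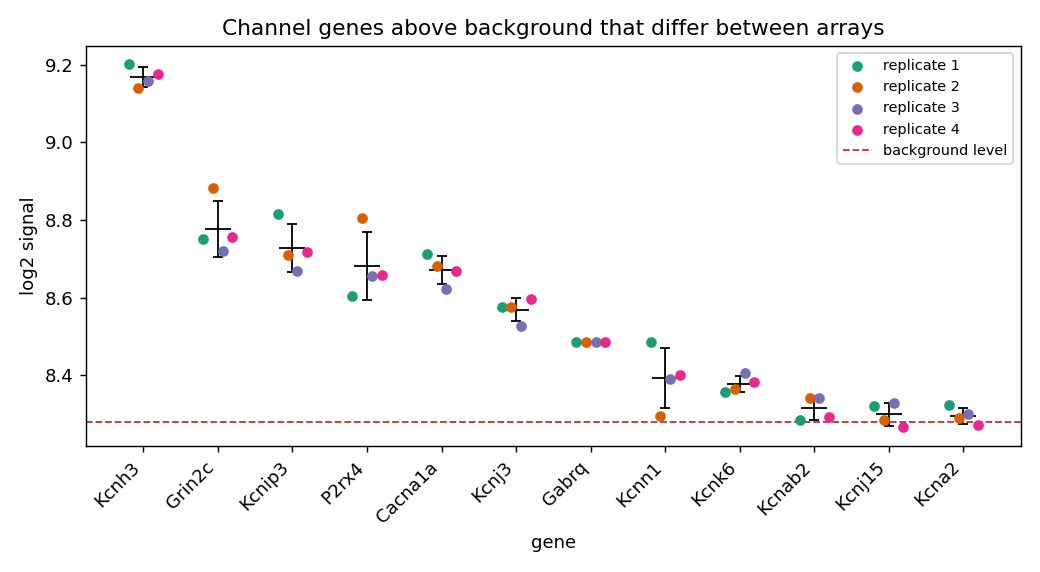
Log2 signal (vertical axis) in each of the 4 rats, by colour, for the 12 channel genes above background that were not flat (horizontal axis), with the mean as a bar and the SD as whiskers. The dashed line is the background level of 8.28, and Kcna2 and Kcnj15 each have 1 rat below it.

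The rats were not ordered alike from gene to gene. Of the 88 members that were not flat, 33 were highest in replicate 2 (37.5%, against 24.1% of all such named genes) and 34 were lowest in replicate 3 (38.6%, against 22.1%). The mean deviations over these members were 0.009, 0.010, -0.009 and -0.010 in replicates 1 to 4, against -0.002, -0.006, 0.008 and -0.001 over all named genes that were not flat. Replicate 4 thus had the lowest mean among the channel genes, and replicate 3 the highest among all named genes. In 28 members 2 probe sets were not flat, and the same rat was highest in both for 6 and lowest in both for 8. Among 4 rats, unrelated probe sets would match in about 1 of 4 members, and both counts were close to that share. Kcnip3, highest in replicate 1 by both probe sets, was 1 of the 6.

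**Figure D5:**
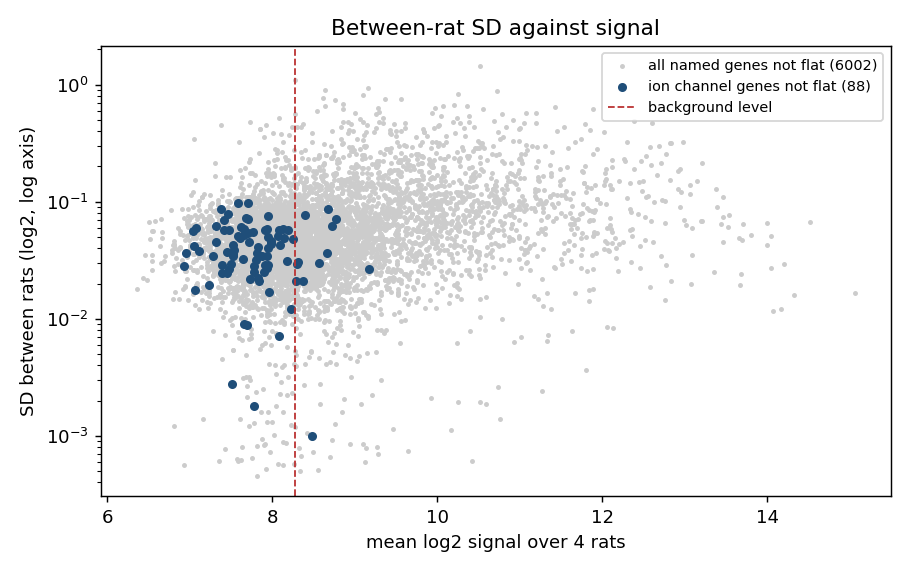
SD between 4 rats (vertical axis, log scale) against mean log2 signal (horizontal axis) for the 88 members that were not flat (blue) and 6002 such named genes (grey). The members lie within the grey cloud, with none above an SD of 0.098, and the dashed line is the background level of 8.28.

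Just above the level lay Chrna6 (8.29), Kcna2 (8.30) and Kcnj15 (8.30), and just below it Cacna1g (8.26), Cacna1i (8.25) and Kcnj4 (8.25). In all, 16 members lay within 0.1 log2 units of the level, so the count of 24 moves with it. At the 90th percentile (8.24) it was 27, or 14.4%, against 51.0% of named genes, and at the 98th (8.45) it was 16, or 8.56%, against 40.0%. A level over all probe sets of the background genes (8.46) gave 16 as well, against 39.6%. Without Myh1, the brightest background gene at 11.49, it was 25, or 13.4%, against 49.8%. A call on each of the 4 arrays gave 22, against 47.0%. Under each of these rules the members' share was below that of all named genes.

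Promoters of 137 members were found in the RefSeq table of the rat assembly GRCr8, and the 250 bases before the start site were searched on both strands for 3 motifs: GGGCGG, a box bound by the Sp1 factors, TATAAA, the TATA box, and TTCAGCACC, one side of the RE1 element. REST, the factor that binds RE1, represses genes of neurons in other tissues. GGGCGG occurred in 64 of the 137 (46.7%), in 9 of 16 members above background and in 55 of 121 below it. It occurred in 56.4% of 8548 promoters of named genes, 61.3% of those above background and 51.6% of those below it. Over all 18999 promoters of protein-coding genes the share was 40.3%. TATAAA occurred in 9 (6.57%), against 8.33% of promoters of named genes. TTCAGCACC occurred in 2 (1.46%), against 0.409%, and in 0 of the 16 above background. Among named genes it occurred in 0.352% of promoters above background and 0.467% of those below it. At such shares, 0 of 16 says nothing particular of the members. The median ratio of observed to expected CpG was 0.53 in the members, 0.61 in those above background and 0.51 in those below it. Over named genes it was 0.71, with 0.76 above background and 0.65 below it, a difference in the same direction. The 250 bases before the start are shown for the channels known from liver cells with a signal above background that are in the table, P2rx4 and Trpm7, and for both promoters with TTCAGCACC, those of Cacng3 (an auxiliary calcium channel subunit) and Kcnh6 (a potassium channel of the same family as Kcnh3). Capitals mark these motifs on either strand.
P2rx4: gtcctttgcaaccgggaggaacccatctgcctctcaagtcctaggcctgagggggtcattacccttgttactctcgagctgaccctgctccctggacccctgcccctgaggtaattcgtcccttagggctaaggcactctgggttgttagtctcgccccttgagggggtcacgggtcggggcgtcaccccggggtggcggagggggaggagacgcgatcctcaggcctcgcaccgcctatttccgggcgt
Trpm7: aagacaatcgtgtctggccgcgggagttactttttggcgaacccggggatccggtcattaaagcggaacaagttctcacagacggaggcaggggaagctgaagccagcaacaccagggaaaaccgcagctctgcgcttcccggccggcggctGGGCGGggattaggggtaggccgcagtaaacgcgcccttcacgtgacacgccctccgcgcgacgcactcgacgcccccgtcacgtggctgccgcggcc
Cacng3: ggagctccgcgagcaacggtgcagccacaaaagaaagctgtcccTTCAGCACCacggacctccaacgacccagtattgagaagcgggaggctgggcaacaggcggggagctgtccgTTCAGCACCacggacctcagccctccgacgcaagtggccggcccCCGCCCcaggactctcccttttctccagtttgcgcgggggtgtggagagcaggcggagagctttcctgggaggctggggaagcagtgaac
Kcnh6: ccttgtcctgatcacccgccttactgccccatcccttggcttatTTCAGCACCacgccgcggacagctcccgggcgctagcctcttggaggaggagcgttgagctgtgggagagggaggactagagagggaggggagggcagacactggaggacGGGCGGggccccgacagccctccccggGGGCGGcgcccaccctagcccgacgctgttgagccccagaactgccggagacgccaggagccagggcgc
These lie at chr12:39523090-39523339 (minus strand), chr3:134588114-134588363 (minus strand), chr1:186632312-186632561 (plus strand) and chr10:91449401-91449650 (plus strand). In Cacng3, TTCAGCACC stands in the sequence at 206 and at 134 bases before the start, both in the direction of the gene, and GGGCGG is on the other strand. In Kcnh6 it stands at 206 bases before the start. Both genes were below background, Cacng3 at 7.56 and Kcnh6 at 7.99. A match of these letters is a description and not a bound site, and binding was not measured here.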

How the data were processed

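Liver RNA was measured on 1 Affymetrix array per rat. The authors deposited log2 signals of 15923 probe sets. The submitters' processing notes list R 2.4.1 and affy 1.12.2 along with GCRMA and RMA, and which of these made the values is not stated there. The scanner settings name the array RAE230A and give 1 lot, 1 scan day and 4 fluidics modules, so no batch could be fitted. The labels' protocol names RAE230-2.

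Of the probe sets 312 carried several gene symbols and 2822 none, and neither kind was named. All 187 members matched RefSeq (GRCr8, used for names) by gene number. The background list named 75 genes, of which 66 were measured. A level was compared with the mean over 4 rats, and no test was run, since there is 1 group. Names follow a rule: all members above background, the 2 brightest of each class, the 3 just below the level, the 5 largest SDs, 14 liver channels and the 2 brightest of each other transport group. Values of Kcnma1 and of Cacng3 and Kcnh6 were added after they were seen. Abcc8, Abcc9, Scn1a and the 4 Kupffer cell markers were also added. Members and lists were chosen with earlier results of these data known. Trpc4ap was set apart with Grina after the annotation was read. The planned protein lengths and filter motifs were not run. The background call was tested on simulated data whose expressed genes lay far above the level, so that test says nothing of genes near it. Python 3.11.15, numpy 2.4.6, pandas 2.3.3 and matplotlib 3.10.9 were used.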

Additional observations from a re-analysis of the deposited data

Results flagged for a closer look

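Among 44 sets of 4 values, named members and classes that were not flat, 2 had 1 rat far from the other 3 relative to the range of the 4 values, where chance flags about 5%. Kcne3 had a log2 signal of 8.03 in replicate 2, where the other 3 had 7.91 to 7.92. Inward rectifiers that were not flat had a mean deviation of -0.012 in replicate 4, against 0.003 to 0.005 in the others. Both differences were under 0.2 log2 units.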

How the results depend on the processing

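No paired analysis was possible because all 4 samples form 1 group. No test was run, so settings change only counts and medians. With the level at the 98th percentile or taken over all probe sets of the background genes (8.45 and 8.46 in place of 8.28), 16 members were above it in both cases. The count was 1 in both cases for Ca2+ pore subunits, K+ auxiliary subunits, two-pore K+ channels, nicotinic receptors and voltage-gated K+ alpha subunits, and 0 for calcium- and sodium-activated K+ channels. At the 90th percentile 27 members were above, with 4 Ca2+ pore subunits, and without Myh1, whose brightest probe set had 11.49, there were 25. Above the highest bacterial control, 102 members (54.5%) and 61 of 82 other transport genes were counted, against 79.6% of named genes. Among K+ channel genes these were 18 of 30 voltage-gated alpha, 9 of 12 auxiliary and 8 of 15 inward rectifier genes. Two-pore channels had 5 of 11, and calcium- and sodium-activated K+ channels 4 of 5. Sodium channels had 3 of 9 alpha and 1 of 3 beta, and calcium channels 7 of 10 pore and 10 of 14 auxiliary. Receptors had 5 of 15 GABA-A, 10 of 17 glutamate, 6 of 16 nicotinic, 1 of 2 serotonin and 3 of 7 P2X genes. TRP channels had 10 of 15. On each array separately 22 members were above, with 1 voltage-gated K+ alpha subunit. With each gene at the median over its probe sets 17 members were above, or 9.1%, against 47.0% of named genes. The members' median was 7.73, with 0 inward rectifiers, 0 two-pore channels and 1 TRP channel above. With the suffixed probe sets (s, x or a) left out, 21 of 166 members were above, or 12.7%, against 48.1% of named genes. The median was 7.78, with 1 two-pore and 0 P2X genes above, since the 1 probe set of P2rx4 has such a suffix. Without Grina and Trpc4ap, a setting chosen after seeing the data, the median was 7.78. The median spread of members that were not flat was 0.088 as a range, and the median SD 0.000 with flat members kept. Leaving out each rat kept the count at 24, the flat members at 99 and the median SD between 0.034 and 0.039. Of 53 named members 17 moved by more than their SD with each gene at the median over its probe sets. These were all the named members with several probe sets, since a gene with 1 cannot move there. None moved with 1 rat left out. As long as a gene keeps the same probe set, none could, since dropping 1 of 4 values shifts a mean by less than its SD. Centring the arrays leaves every mean over the 4 rats unchanged, so it could move none. With the median over probe sets 8 fell below the level: Cacna1a at 7.75, Kcnab2 at 8.18, Kcnj11 at 7.998, Kcnj15 at 8.02, Kcnj3 at 7.91, Kcnk3 at 7.90, Kcnk6 at 7.99 and Trpm7 at 8.02. Cacna1g, at 8.26, was above it. The number of arrays limits the precision.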
